A study of Caenorhabditis elegans with 3 samples.

Results

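The genes mir-58, mir-80, mir-81 and mir-82 of Caenorhabditis elegans form the core of a family of microRNAs (miRNAs) related to bantam of Drosophila. Clusters of DCR-1 contact were taken as theirs when the sense annotation of the deposited lists named the gene and the annotation classes held miRNA. This gave 20 clusters on 4 genes, out of 428 miRNA clusters on 100 miRNA genes and 9293 clusters in all, counted over 5 lists. The clusters came from PAR-CLIP of FLAG-tagged DCR-1, the single Dicer of the worm, in whole young adults. In this method RNA is labelled with 4-thiouridine, UV light crosslinks it to the protein, and crosslinked positions are later read as T-to-C conversions.

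All 3 libraries came from animals of a rescue strain that expressed FLAG:DCR-1, with 4-thiouridine labelling and UV irradiation at the young adult stage, and no library without the tag or without crosslinking was analysed here. Replicates 1 and 2 are labelled T1/V1 and are called T1/V1 library 1 and T1/V1 library 2 here, and replicate 3 is labelled T1 and is called the T1 library. The first pair had a custom 3' adapter and the T1 library the default one. RNase T1 cuts after G in unpaired RNA and RNase V1 cuts base-paired RNA. The series' design text gives both nucleases and the title of replicate 3 gives T1 only, and the effects of nuclease and adapter cannot be told apart. Separate cultures are named in no label, so the spread between libraries may be technical. Counts of sequenced reads are not counts of independent molecules, and each interval below is an exact (Clopper-Pearson) 95% binomial interval that covers counting error only. The library lists held 7829, 10834 and 24992 reads in replicate order, of which 1719, 1207 and 4315 lay in miRNA clusters. The pooled consensus list, in which every cluster has reads from 2 or 3 libraries, had 27092 miRNA reads, and the authors' stricter conservative list had 27040.

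A miRNA gene is transcribed as a long primary RNA from which Drosha releases a hairpin of a pair of arms joined by a loop. Dicer then removes the loop, leaving a short duplex of which usually one strand is retained by an Argonaute protein and pairs with messenger RNAs through its seed, the bases near its 5' end. Members of the mir-58 family share their seed, are abundant in somatic tissues, act largely redundantly, and give their main mature miRNA from the 3' arm. The mature forms resemble each other in sequence, so reads with mismatches may be assigned to the wrong member. In every list the deposited number of unique reads equalled the number of reads for each cluster, but what that attribute counts is not documented in the lists.

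Reads on the family followed the same order in every list, with mir-58 first, mir-80 second, then mir-81 and mir-82 last. For mir-58 the lists held 212 reads in T1/V1 library 1, 148 in T1/V1 library 2, 383 in the T1 library and 1854 in the consensus. No other miRNA gene had more reads in any of the 3 library lists, and in the consensus list mir-58 ranked 3 of 97, behind mir-35 and mir-36, which share 1 cluster of 1856 reads. For mir-80 the reads were 86, 65 and 227 in the libraries and 551 in the consensus, with ranks of 5 of 62, 4 of 45, 5 of 78 and 16 of 97 miRNA genes. For mir-81 they were 30, 24 and 46 in the libraries and 114 in the consensus, with ranks of 17, 16, 27 and 51. The gene mir-82 had no listed cluster in either T1/V1 library, 3 reads in the T1 library and 43 in the consensus, where it ranked 69.

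**Figure D1:**
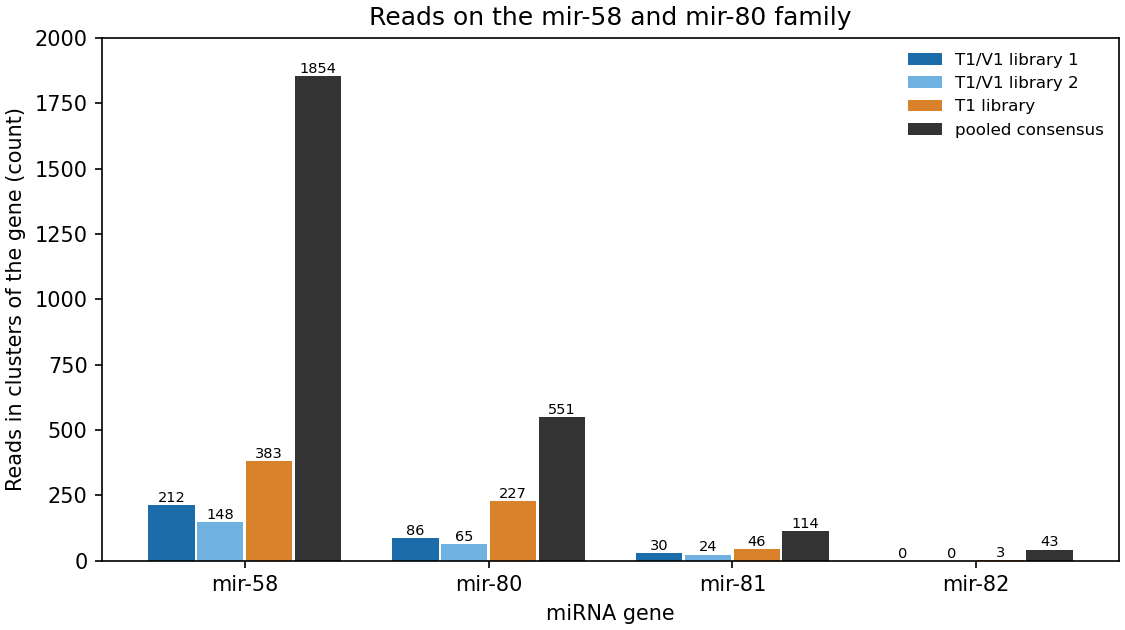
Reads in clusters of each family gene (y axis, count) for the 3 libraries and the pooled consensus list, with 1 bar per list and no error bars since each bar is 1 list. The consensus bars run from 1854 reads for mir-58 to 43 for mir-82, and a 0 marks a list with no cluster on the gene.

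Cluster lengths differed, so the order was also read per base of covered cluster. In the consensus list the reads per base were 24.7 for mir-58, 8.10 for mir-80, 2.59 for mir-81 and 0.683 for mir-82. In the T1/V1 libraries mir-58 had 2.47 ± 0.167 reads per base (SD, n = 2), mir-80 had 1.25 ± 0.0271 (SD, n = 2) and mir-81 had 1.02 ± 0.133 (SD, n = 2). The values of mir-80, 1.26 and 1.23, and of mir-81, 1.11 and 0.923, were close but did not overlap. In the T1 library the reads per base were 5.39, 3.34, 1.15 and 0.136 in the same order of genes. Per base, mir-80 thus stood nearer to mir-81 than to mir-58 in the T1/V1 libraries. In the T1 library it stood nearer to mir-58 than to mir-81. This contrast rests on 1 T1 library and was not tested. The divisor also changed from list to list. In replicate order it was 27, 26 and 40 nt for mir-81 and 68, 53 and 68 nt for mir-80. For mir-58 it was 82, 63 and 71 nt. The per-base contrast therefore follows cluster extent as well as reads.

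Within the family, mir-58 supplied 64.6% of the reads in T1/V1 library 1 (interval 59.2% to 69.8%), 62.4% in T1/V1 library 2 (55.9% to 68.6%) and 58.1% in the T1 library (54.2% to 61.9%). The intervals of the 3 libraries overlapped. In the consensus list mir-58 supplied 72.4% of the family's reads (70.6% to 74.1%), above the interval of each library list.

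As a share of miRNA reads, mir-58 took 12.3% in T1/V1 library 1, 12.3% in T1/V1 library 2 and 8.88% in the T1 library. The T1/V1 libraries lay together, at 12.3% ± 0.0502 (SD, n = 2), and above the T1 library. For mir-80 the shares were 5%, 5.39% and 5.26%, and the T1 value lay between the T1/V1 values. For mir-81 they were 1.75%, 1.99% and 1.07%, with the T1 library again below both T1/V1 libraries. Two-sided Fisher's exact tests compared each miRNA gene's reads between each pair of libraries, with Benjamini-Hochberg adjustment over all genes and pairs. They compare libraries, not nucleases.

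Between T1/V1 library 1 and the T1 library, the share of mir-58 was lower in the latter (Fisher's exact adjusted p = 0.0012), and 1 of 4 members tested passed, against 17.7% of all 79 miRNA genes tested. Between T1/V1 library 2 and the T1 library, the share of mir-58 was again lower in the latter (Fisher's exact adjusted p = 0.0071), and 1 of 4 members passed, against 22.5% of 80 genes. In both pairs the 4 members include mir-82, which entered as 0 against 3 reads, too few to pass. Between the T1/V1 libraries 0 of 3 members passed Fisher's exact test after adjustment, against 20% of 65 genes. At an unadjusted Fisher's exact p under 0.05 there were also 0 of 3 members, against 25 of 65 genes. Over the 3 pairs 20.1% of the tests passed. The rate between the T1/V1 libraries was like that against the T1 library. Listed reads thus varied between libraries by more than the counting error that this test allows for. A gene with no listed cluster in a library entered as 0 reads there, and many of the passing tests were of this kind. The rate therefore reflects cluster listing as well as read numbers. The members mir-58, mir-80 and mir-81 were listed in all 3 libraries and could not pass in this way. For mir-81 the lower share in the T1 library did not pass against either T1/V1 library (Fisher's exact adjusted p = 0.132 and 0.0767). For mir-80 every adjusted p by Fisher's exact test was 0.823 or above. Whether the lower mir-58 share in the T1 library passed depended on the measure, and its direction depended on the total. With conversions in place of reads the share was still lower in the T1 library. The differences were -2.48 points from T1/V1 library 1 and -5.49 points from T1/V1 library 2. Neither passed on these smaller counts (Fisher's exact adjusted p = 0.502 and 0.0661). As a share of all reads of the list, mir-58 was still lower in the T1 library than in T1/V1 library 1, with a difference of -1.18 percentage points (Fisher's exact adjusted p = 2.48e-09), whereas against T1/V1 library 2 the difference turned to 0.166 points (Fisher's exact adjusted p = 0.361). Over all reads mir-58 also differed between the T1/V1 libraries, by -1.34 points from library 1 to library 2 (Fisher's exact adjusted p = 2.48e-09), and mir-81 by -0.199 points from T1/V1 library 1 to the T1 library (Fisher's exact adjusted p = 0.0104). For mir-80 the difference between the T1/V1 libraries was then -0.499 points (Fisher's exact adjusted p = 0.0017). All miRNA reads were 1719 of 7829 listed reads in T1/V1 library 1, 1207 of 10834 in T1/V1 library 2 and 4315 of 24992 in the T1 library. Shares over all reads thus follow the miRNA part of each list as well as the gene. Over all miRNA genes, 75 gene and pair combinations passed on that total, against 45 of 224 over miRNA reads.

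The clusters of 3 members covered stretches near the length of a miRNA hairpin in at least 1 list, and reads lay mostly on the part nearer the 3' end where an upstream and a downstream part were both listed. The mir-58 consensus cluster lay on chromosome IV, 3233261 to 3233335 on the plus strand, and was 75 nt long. Coordinates follow the deposited lists, and no source used here names their build. Bases are counted from 1 at the 5' end of each gene's consensus cluster. In T1/V1 library 1 the mir-58 cluster ran from base 5 to 86, and in the T1 library from base 5 to 75. In T1/V1 library 2 it was split, with 11 reads on bases 4 to 40 and 137 reads on bases 49 to 74. The downstream piece held 92.6% of the reads of the split locus (interval 87.1% to 96.2%). It carried the gene's sequence name Y67D8A.4 and the class of noncoding exon, whereas the upstream piece carried neither.

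The mir-80 consensus cluster lay on chromosome III, 8865189 to 8865256 on the minus strand, and was 68 nt long. Its extent was the same in T1/V1 library 1 and the T1 library. In T1/V1 library 2 it was split into 4 reads on bases 1 to 25 and 61 reads on bases 42 to 69, so that 93.8% lay downstream (interval 85.0% to 98.3%). The annotation gave the downstream piece the name K01F9.3a and the upstream piece K01F9.3b. In that library 9 miRNA genes had exactly 2 such pieces at most 60 nt apart, and in 8 of them the downstream piece held more reads. Among genes split in this way in the other libraries, none of them members, the downstream piece held more reads for 3 of 11 in T1/V1 library 1 and for 7 of 14 in the T1 library. The downstream shares of mir-58 and mir-80 were the highest of the 9 in T1/V1 library 2.

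The mir-81 cluster lay on chromosome X, 2431116 to 2431159 on the plus strand, and was 44 nt long in the consensus list. In the T1/V1 libraries the cluster was shorter, on bases 18 to 44 and 18 to 43, with lengths of 27 and 26 nt. In the T1 library it ran from base 5 to 44. Reads upstream of base 18 were thus listed in the T1 library and in the pooled list. The median miRNA cluster in these lists had 27, 27, 35 and 66 nt, so that mir-81 was near the median in the T1/V1 libraries and below it in the consensus.

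The mir-82 consensus cluster lay on chromosome X, 2435266 to 2435328 on the minus strand, and was 63 nt long. In the T1 library its only cluster covered bases 1 to 22, the upstream end. That cluster did not carry the gene's sequence name T07D1.7 or the noncoding exon class, both of which the consensus cluster carried. The piece of mir-82 listed in the T1 library therefore lay at the opposite end from the pieces that held most reads of mir-58 and mir-80, at a depth of 3 reads.

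**Figure D2:**
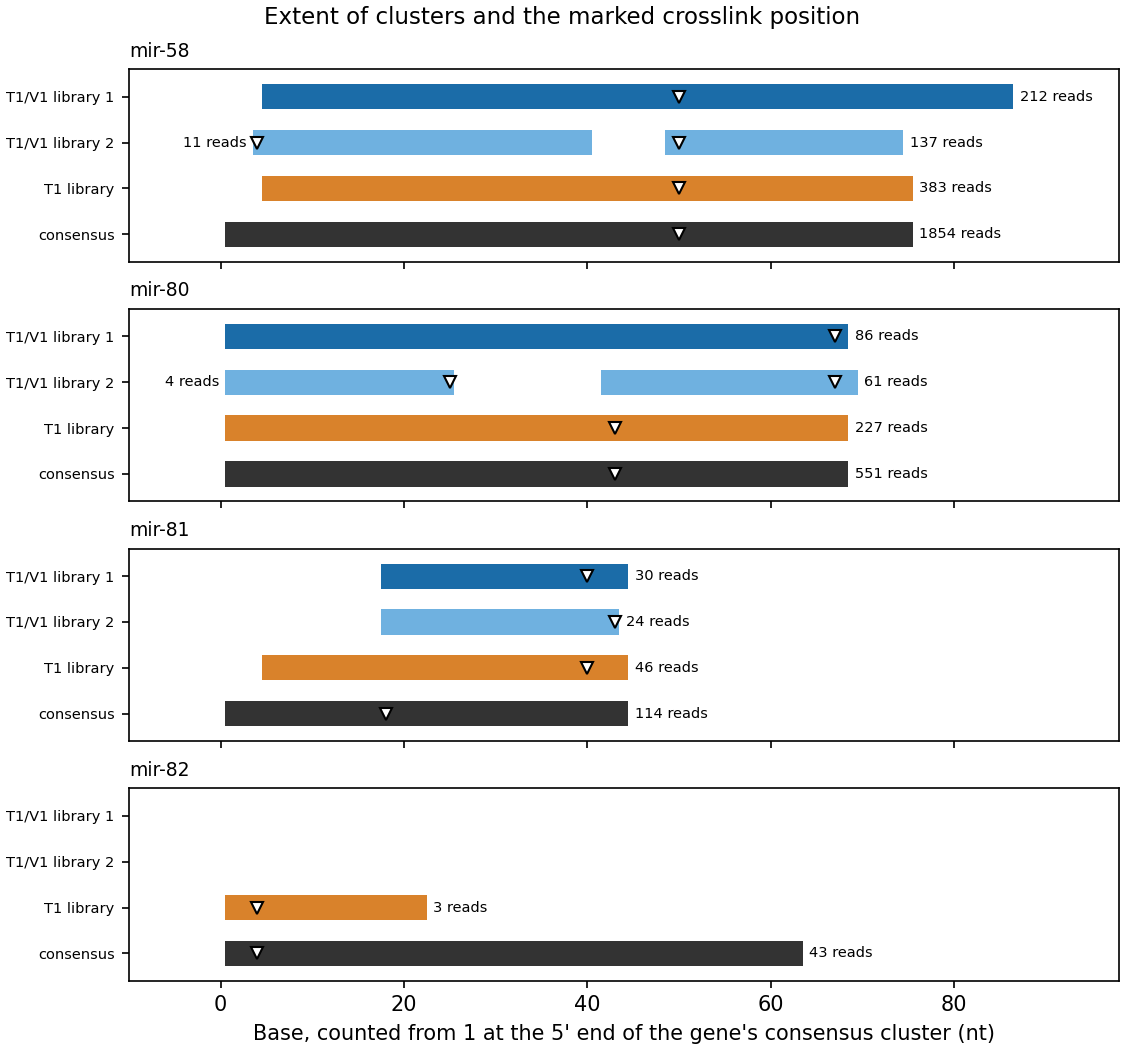
Extent of each family cluster, as bars along the bases counted from 1 at the 5' end of the gene's consensus cluster (x axis, nt), with 1 row per list and read numbers beside the bars. White triangles mark the crosslink position given by the authors. The mir-58 and mir-80 loci are split in T1/V1 library 2, with 137 of 148 and 61 of 65 reads on the downstream piece, and mir-82 has a bar of 3 reads at its upstream end.

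Each deposited cluster has a marked crosslink position. For mir-58 it was base 50 in the consensus list and in all 3 libraries, counting the larger piece of T1/V1 library 2. That base was the second of the downstream piece, which began at base 49. For mir-80 the position was base 43 in the T1 library and the consensus list, again the second base of the downstream piece as bounded in T1/V1 library 2. In both T1/V1 libraries it was base 67 instead, near the 3' end of the piece. For mir-81 it was base 18 in the consensus list, base 40 in T1/V1 library 1 and the T1 library, and base 43 in T1/V1 library 2. In the T1/V1 libraries, whose mir-81 cluster began at base 18, these were positions 23 of 27 and 26 of 26. For mir-82 it was base 4 in the consensus list and base 4 in the T1 library.

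The marked position of mir-58 was the same in each list, and that of mir-80 moved between the start and the end of the downstream piece. For mir-81, which was never split, it differed between the consensus and the library lists. Among all miRNA clusters of at most 35 nt, the marked position fell in the first 3 nt for 5 of 52 clusters in T1/V1 library 1, 7 of 39 in T1/V1 library 2 and 9 of 46 in the T1 library. It fell in the last 6 nt for 22, 12 and 6 of them. These bounds were chosen after the positions of the members were seen.

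T-to-C conversions made up a low share of the edits on mir-58 and mir-80 in most lists. For mir-58 the conversions were 56, 40 and 152 in the libraries, out of 332, 219 and 722 edits, and 1083 out of 3111 in the consensus. The conversions per 100 edits were 16.9 in T1/V1 library 1 (interval 13.0 to 21.3), 18.3 in T1/V1 library 2 (13.4 to 24.0), 21.1 in the T1 library (18.1 to 24.2) and 34.8 in the consensus (33.1 to 36.5). The medians over all miRNA genes were 25.8, 20.0, 30.4 and 53.3. The interval of mir-58 lay below the median in 3 of these lists and included it in T1/V1 library 2.

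For mir-80 the conversions were 17, 12 and 56 in the libraries, out of 117, 88 and 437 edits, and 286 out of 808 in the consensus. Its conversions per 100 edits were 14.5 (interval 8.70 to 22.2), 13.6 (7.25 to 22.6), 12.8 (9.83 to 16.3) and 35.4 (32.1 to 38.8). All 4 values lay below the medians, and the interval reached the median in T1/V1 library 2 only. By this measure mir-80 ranked 49 of 62, 33 of 45, 72 of 78 and 82 of 97 genes, counted from the highest. For mir-81 the values were 26.7 (interval 14.6 to 41.9), 17.2 (5.85 to 35.8), 21.3 (13.4 to 31.3) and 37.1 (29.8 to 44.9), below the median only in the consensus once the intervals are considered. The gene mir-82 stood apart, with 62.9 in the consensus (interval 49.7 to 74.8), above the intervals of the other 3 members, and 4 of 5 edits in the T1 library.

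**Figure D3:**
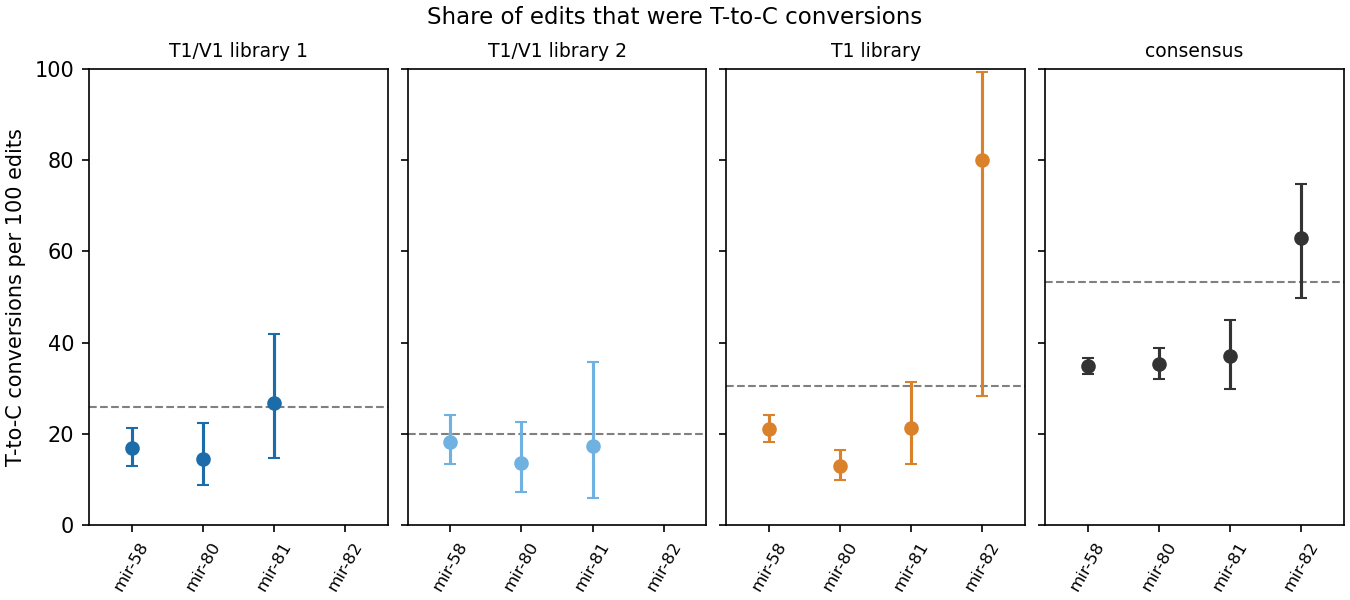
T-to-C conversions per 100 edits (y axis) for each family gene (x axis) in the 3 libraries and the consensus list, with exact 95% binomial intervals; the dashed line is the median over all miRNA genes of that list. In the consensus panel mir-58, mir-80 and mir-81 lie between 34.8 and 37.1, below the median of 53.3, and mir-82 lies at 62.9.

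Edits of other kinds were frequent on mir-58, mir-80 and mir-81, while in the library lists conversions per read lay below the median throughout for mir-80 only. Edits other than T-to-C, per 100 reads, were 130.2, 121 and 149 for mir-58 in the libraries and 109 in the consensus. The medians over miRNA genes were 78.9, 86.4, 96.1 and 54.7, and mir-58 ranked 5, 3, 10 and 3 from the top. For mir-80 they were 116, 117, 168 and 94.7, with ranks 11, 6, 3 and 10. For mir-81 they ranged from 92.1 in the consensus to 152 in the T1 library, with ranks 13, 14, 6 and 11. Thus all 3 genes stood above the median in every list. Conversions per 100 reads were 26.4, 27.0 and 39.7 for mir-58 in the libraries, beside medians of 27.1, 21.0 and 45.1. For mir-80 they were 19.8, 18.5 and 24.7, below the median in all 3 libraries. For mir-81 they were above the median in T1/V1 library 1 and below it in the other two libraries. In the consensus list they were 58.4 for mir-58, 51.9 for mir-80 and 54.4 for mir-81, all below the median of 62.1.

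For conversions per 100 edits no member passed the test between any pair of libraries. By Fisher's exact test, two-sided and adjusted as above, 0 of 3 members passed in each of the 3 pairs, with 0 also at an unadjusted p under 0.05 and a smallest adjusted p = 0.722. Of all miRNA genes tested in a pair, 0% of 42 passed between the T1/V1 libraries, 1.64% of 61 when T1/V1 library 1 was set against the T1 library, and 4.65% of 43 when T1/V1 library 2 was. In the same order of pairs, 4 of 42, 4 of 61 and 7 of 43 genes had an unadjusted Fisher's exact p under 0.05. Over the 3 pairs 2.05% of the tests passed after adjustment. A missed threshold does not show that the values were equal. For mir-58 the difference between T1/V1 library 1 and the T1 library was 4.19 conversions per 100 edits.

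The pooled list did not equal the sum of the library lists, and the members differed in this. The consensus cluster of mir-58 held 2.50 times the reads summed over the library lists, 1854 against 743. For mir-80 the ratio was 1.46, with 551 against 378 reads, and for mir-81 it was 1.14, with 114 against 100 reads. For mir-82 it was 14.3, with 43 against 3 reads. The median over the 78 miRNA genes with a cluster in both kinds of list was 4.71, with quartiles of 2.02 and 9.82. Counted from the lowest ratio, mir-81 ranked 9, mir-80 ranked 12, mir-58 ranked 24 and mir-82 ranked 70. Conversions rose more than reads for the 3 larger members, with ratios of 4.37, 3.36 and 1.72. Over the same 78 genes the median conversion ratio was 7.42, also above the median read ratio of 4.71. The larger rise in conversions was thus not particular to these members, whose ratios lay below that median. The 1083 consensus conversions of mir-58 stood beside 248 in the libraries together. No source used here says how reads outside the library clusters entered the pooled lists.

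**Figure D4:**
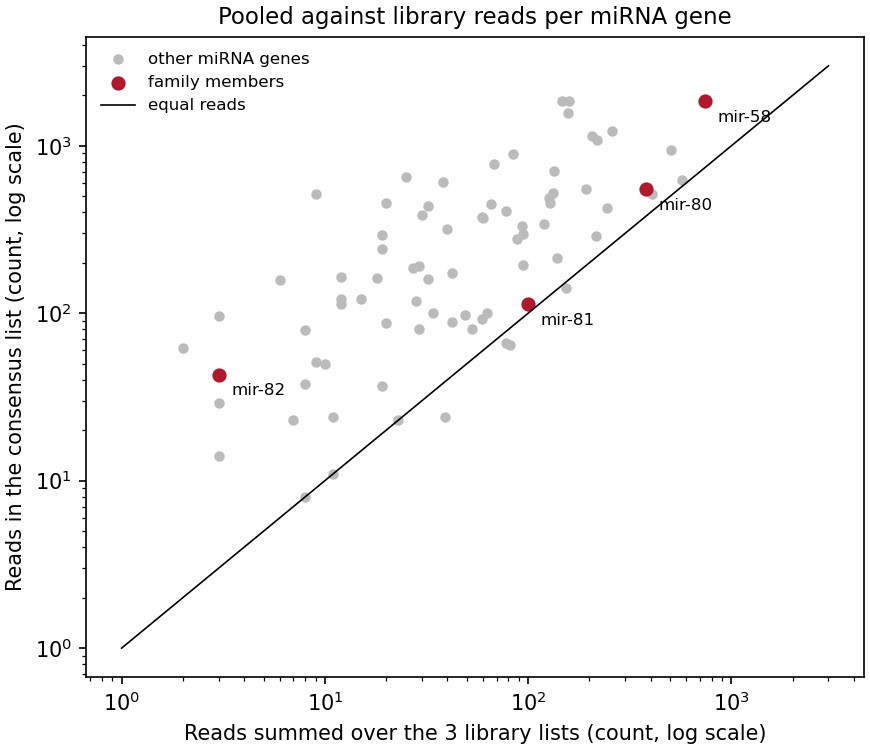
Reads in the consensus list (y axis, log scale) against reads summed over the 3 library lists (x axis, log scale) for each miRNA gene with reads in both, with family members in red and the line of equal reads in black. The points of mir-80 and mir-81 lie close to the line, at 551 against 378 and 114 against 100 reads, and mir-82 lies far above it.

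Within the family, the gene with the fewest reads was also the one listed in the fewest libraries. Over all miRNA genes recurrence did not simply follow read number. For example, mir-83 had 114 consensus reads, as mir-81 did, but a cluster in 1 library list only. The genes mir-58, mir-80 and mir-81 had a cluster in all 3 library lists, as did 42 of the 97 miRNA genes of the consensus list, and mir-82 in 1 of them. The consensus clusters of all 4 members had reads and conversions from 3 libraries, including mir-82, so its lack of a listed cluster in the T1/V1 libraries does not mean that it had no reads there. Of 108 consensus miRNA clusters, 85.2% had reads from 3 libraries, beside 45.0% of all 4705 consensus clusters. All 4 members were in the conservative list with the same reads, conversions and edits as in the consensus list.

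Across the 3 libraries, the miRNA genes with a read pattern most like that of the summed family were mir-228, mir-70 and mir-64. Likeness was the total variation distance between the 3 shares of miRNA reads, scaled to sum to 1, among 36 genes outside the family with a cluster in every library list and at least 30 reads. The distances were 0.0169, 0.024 and 0.0369, beside a median of 0.112 over 39 genes, members included. The members mir-58, mir-80 and mir-81 lay at 0.0177, 0.0533 and 0.0608 from the sum, most of which was mir-58. All 3 of the named genes were thus nearer to the sum than mir-80 and mir-81 were. The reads were 69, 46 and 130 for mir-228, 20, 16 and 45 for mir-70, and 30, 20 and 69 for mir-64. Over 3 libraries this is a description only.

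The gene mir-58 lay in intron 4 of Y67D8A.1 on the same strand. The only other consensus cluster of Y67D8A.1, at 3232021 to 3232085, held 4 reads. The annotation of that cluster named intron 4 and also the class of coding sequence. The gene mir-82 lay in an intron of gid-2 (T07D1.2) on the same strand and mir-81 opposite an intron of gid-2, 4106 nt from mir-82, and gid-2 had 0 sense clusters outside the miRNAs in any list. No cluster lay on the strand opposite to any of the 4 consensus clusters in any list. Of 4 further bantam-like miRNA genes, mir-1834 (also called mir-58b), mir-2209a, mir-2209b and mir-2209c, 0 had a cluster in any list. Whether the annotation of the lists held these genes under these names is not known.

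Messenger RNAs reported as targets of the family were looked up next. Of 7 such genes, pmk-2, egl-1, sma-6, daf-1, daf-4, dbl-1 and sta-1, 1 had a consensus cluster, beside 10.7% of 19983 protein-coding genes, and 1 had a conservative cluster, beside 6.33%. It was dbl-1, which encodes a ligand of the TGF-beta pathway, with 3 reads and 6 conversions in a coding exon, and no library list had a cluster on any of them. Of 9 genes for miRNA production, action and decay, drsh-1, pash-1, dcr-1, rde-4, alg-1, alg-2, ain-1, ain-2 and xrn-2, 4 had a consensus cluster, beside the same 10.7%. They were dcr-1 with 35 reads in 8 clusters, the exonuclease gene xrn-2 with 13 reads in 4, the Argonaute partner gene ain-1 with 5 reads in 2, and the Argonaute gene alg-2 with 2 reads in 1. Expression was not measured in these libraries, and nothing in either list is read as particular to it.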

How the data were processed

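The deposited lists hold, per cluster, counts of T-to-C conversions, reads and all edits, which the authors did not normalise. The authors' deposited entropy score was not used. Per the file attributes, clusters were called at an estimated false discovery rate of 5%; per the submitters' processing notes, Bowtie2 2.1.0 was used. No source used here names the build or the annotation release. Members were found by gene name in the sense annotation; a cluster naming several genes counted for each. Reads, conversions and edits were summed per gene and list, and shares carry exact 95% binomial intervals. Fisher's exact tests covered all miRNA genes and all 3 library pairs; their code was tested on simulated data. No test was made between 2 T1/V1 libraries and 1 T1 library. Protein-coding genes were matched through a RefSeq table of assembly WBcel235, used for names only. By rule the values named were those of the 4 members, of listed genes with a cluster and of the 3 genes most alike in pattern; listed genes without a cluster are named only, the host genes Y67D8A.1 and gid-2 are named for position, and mir-238, mir-35 and mir-36 were added after their values were seen. The members and lists were chosen with earlier results of these data known. No miRNA sequence was given in the files, so none is printed. Alternatives covered the list, read minimum, denominator, measure and left-out replicates. Software was SciPy 1.17.1, pandas 2.3.3 and numpy 2.4.6 under Python 3.11.15, with matplotlib 3.10.9 for plots.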

Additional observations from a re-analysis of the deposited data

How the results depend on the processing

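No paired analysis was possible because the T1/V1 and T1 groups share no replicate number. The shares and gene counts depended on what was counted. With all reads of the list in place of miRNA reads, the family took 3.19% (T1/V1 mean), 2.64% (the T1 library) and 2.78% (consensus). With conversions in place of reads it took 17.3%, 11.9% and 8.13% of miRNA conversions, and mir-58 took 68.0% and 65.8% of the family's conversions in T1/V1 and T1. With clusters of at least 5 reads the family's T1/V1 share was 19.8%, against 19.4% ± 0.392 (SD, n = 2), and without clusters naming several miRNA genes its consensus share was 10.3%, against 9.46%. Per 100 reads, family conversions were 24.98, 35.1 and 57.4, against 17.1, 18.4 and 35.4 per 100 edits. Leaving out each T1/V1 library gave family shares of 19.1% and 19.6%, mir-58 shares of 62.4% and 64.6%, and 17.0 and 17.2 conversions per 100 edits. Each of these is the value of the remaining T1/V1 library alone. By Fisher's exact test, 45 gene and pair combinations differed in share of miRNA reads, against 75 over all reads and 8 with conversions, and leaving out a replicate left 13 to 20. For conversions per 100 edits 3 differed, and leaving out a replicate left 0 to 4, the latter without T1/V1 library 1. Leaving out 1 of the 3 libraries leaves a single pair, so these counts are that pair's own tests, adjusted alone. They cannot be set against the counts over 3 pairs and do not show dependence on a replicate. Over all reads the mir-80 share turned to a fall of -0.499 percentage points from T1/V1 library 1 to 2 and to a rise of 0.308 from T1/V1 library 2 to the T1 library, and mir-58 to a rise of 0.166 there (Fisher's exact adjusted p = 0.0017, 0.0102 and 0.361). Over all reads 2 further member comparisons passed, mir-58 between the T1/V1 libraries (-1.34 points, Fisher's exact adjusted p = 2.48e-09) and mir-81 between T1/V1 library 1 and the T1 library (-0.199 points, 0.0104, against 0.132 over miRNA reads). These shares over all reads also follow the part of each list that was miRNA reads. Targets with a cluster numbered 1 in both pooled lists. Clusters of few reads, as on mir-82, limit what can be said.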

Other observations

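The neighbour of mir-80 on the same strand, mir-238, lay 1990 nt from it on chromosome III, at 8867247 to 8867320, and gave a different balance of reads and conversions. The gene mir-238 held 34, 30 and 155 reads in the libraries, fewer than mir-80 in each, and 1089 in the consensus list, more than mir-80. Its conversions per 100 edits were 38.5 in T1/V1 library 1 (interval 20.2 to 59.4), 33.3 in T1/V1 library 2 (18.6 to 51.0), 49.1 in the T1 library (42.4 to 55.9) and 53.3 in the consensus (50.8 to 55.9). In the T1 library and in the consensus these intervals lay above those of mir-80. The pair was named after its values were seen, and the difference is a description with no test.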
